A study of Mus musculus with 18 samples.

Results

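The genes of respiratory complex I that carry an Nduf symbol were followed through 18 single mouse oocytes. Members were all genes of the deposited tables whose GENCODE symbol starts with Nduf, without symbols that contain -ps. This gave 49 of 47069 genes, of which 41 bear subunit symbols and 8 are Ndufaf genes, the assembly factors. By annotation 46 members are protein coding and 3 are processed pseudogenes (Ndufa11b, Ndufb4c and Ndufs6b). Ndufa11b and Ndufs6b had no count in any oocyte, and the other 47 members passed the filter on low counts together with 12037 genes in all.

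Each oocyte was sequenced as its own SMART-seq2 library, a method that copies polyadenylated RNA into full-length cDNA. The oocytes came from wild-type C57BL/6 mice aged 6 weeks (6wk) or 12 months (12m). Each age is represented by immature oocytes at the germinal vesicle (GV) stage, held in prophase, by oocytes that reached metaphase II in vitro without MSC (IVM-MII), and by oocytes that did so in an overnight co-culture with MSC (MSC-IVM-MII). The labels do not spell out MSC, and they describe the study as asking what this co-culture does to the oocyte at both ages. These are 6 groups of 3 oocytes. In all groups the lysed oocyte was centrifuged to pellet its nucleus, and libraries were made from the supernatant.

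Complex I is the entry point of electrons from NADH into the respiratory chain. Its matrix arm carries the flavin and the iron-sulphur clusters that pass electrons to ubiquinone, and its membrane arm pumps protons. Core subunits catalyse and are shared with bacteria, accessory subunits surround them, and assembly factors help to build the complex but are not part of it. The membrane-arm core is encoded by the mitochondrial genome and the rest by nuclear genes. The GV oocyte holds a store of maternal mRNA, and the fully grown oocyte matures with little new transcription.

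The labels name no animal or culture, so the 3 oocytes of a group are cells and not replicates. A group is therefore a single sample, and no comparison carries a test. Values are CPM, the usual scaling of counts to the library total, here with a TMM factor, and a difference is the difference of group means of log2(CPM + 1), so it is understated for weakly expressed genes. A member is counted as lower or higher when its difference is at or past -1 or 1, a 2-fold change, beside the percentage of the 12037 genes that did so. CPM are shares of what was captured, so the amount of a transcript per oocyte, its poly(A) tail and the amount of all other RNA cannot be told apart.

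Total counts ran from 1914072 to 9193559 per oocyte. Genes with at least 1 count numbered 13046 to 16036 (median 14943.5) in GV and 8612 to 13117 (median 10603) in metaphase II oocytes. At least 8 of 10 oocyte markers were detected in every oocyte, and Figla was at 0 in 8 of the 12 metaphase II oocytes. The 10 markers summed to 7410 CPM in GV-12m oocyte 3, to between 26189 and 58573 CPM in the other GV oocytes and to between 7155 and 24107 CPM in metaphase II oocytes. Both the number of genes detected and the oocyte marker sum had lower medians in metaphase II than in GV oocytes, and their part in the results was not tested. The 15 cumulus and granulosa markers summed to 1725 CPM in GV-12m oocyte 3, to between 70.3 and 220.4 CPM in the other GV oocytes and to at most 80.3 CPM in metaphase II oocytes. The part of granulosa transcripts in the values of GV-12m oocyte 3 was not tested. In any oocyte the 11 mesenchymal stromal markers summed to at most 14.2 CPM. The 7 blood and immune markers summed to at most 20.8 CPM. Of these markers Thy1, Eng, Nt5e, Ptprc and Adgre1 were at 0 throughout, and each of the others was detected. Cd68 was detected in 14 oocytes (at most 13.7 CPM) and Dcn in 6 (at most 14.2 CPM). Lyz2 was detected in 4 oocytes (at most 9.07 CPM) and Vim in 3 (at most 8.22 CPM). Sample titles start with O01, O04 or O05 at 12m and with Y01 or Y03 at 6wk, so age and whatever these prefixes stand for cannot be told apart.

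In GV oocytes nearly all nuclear subunits of the 2 arms were represented. Between 37 and 38 of the 41 genes with subunit symbols had at least 10 CPM in each GV oocyte. Of the 41, 5 lie outside the arms, namely Ndufa4, Ndufa4l2 and the 3 processed pseudogenes. On the scale of TPM, which corrects for transcript length, the 35 nuclear subunits of the 2 arms other than Ndufs1 had median GV levels between 50.7 and 1190, with a median of 288. Ndufab1, the mitochondrial acyl carrier protein that sits in both arms, was the highest member with a median GV level of 1190 TPM (range 1038 to 1390 over 6 oocytes). Ndufa13, known also as Grim19, was the lowest of the 35 at 50.7 TPM. The median GV level was 182 TPM over the 7 core matrix-arm subunits, 319 TPM over the 9 accessory matrix-arm subunits, 228 TPM over the 9 accessory subunits of the proximal membrane arm and 418 TPM over the 11 of the distal membrane arm. The 8 Ndufaf genes were lower, with a median of 64.1 TPM.

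Ndufs1, the largest iron-sulphur subunit of the matrix arm, stood apart from its partners. Its median GV level was 1.93 TPM against 134 TPM for Ndufv1, the next lowest core subunit, and its highest value in any of the 18 oocytes was 11.4 CPM. Ndufaf1, a factor that works with Ecsit and Tmem126b on the membrane arm, was likewise near the lower limit at 2.13 TPM. In GV oocytes it had between 0 and 3.18 CPM.

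**Figure D1:**
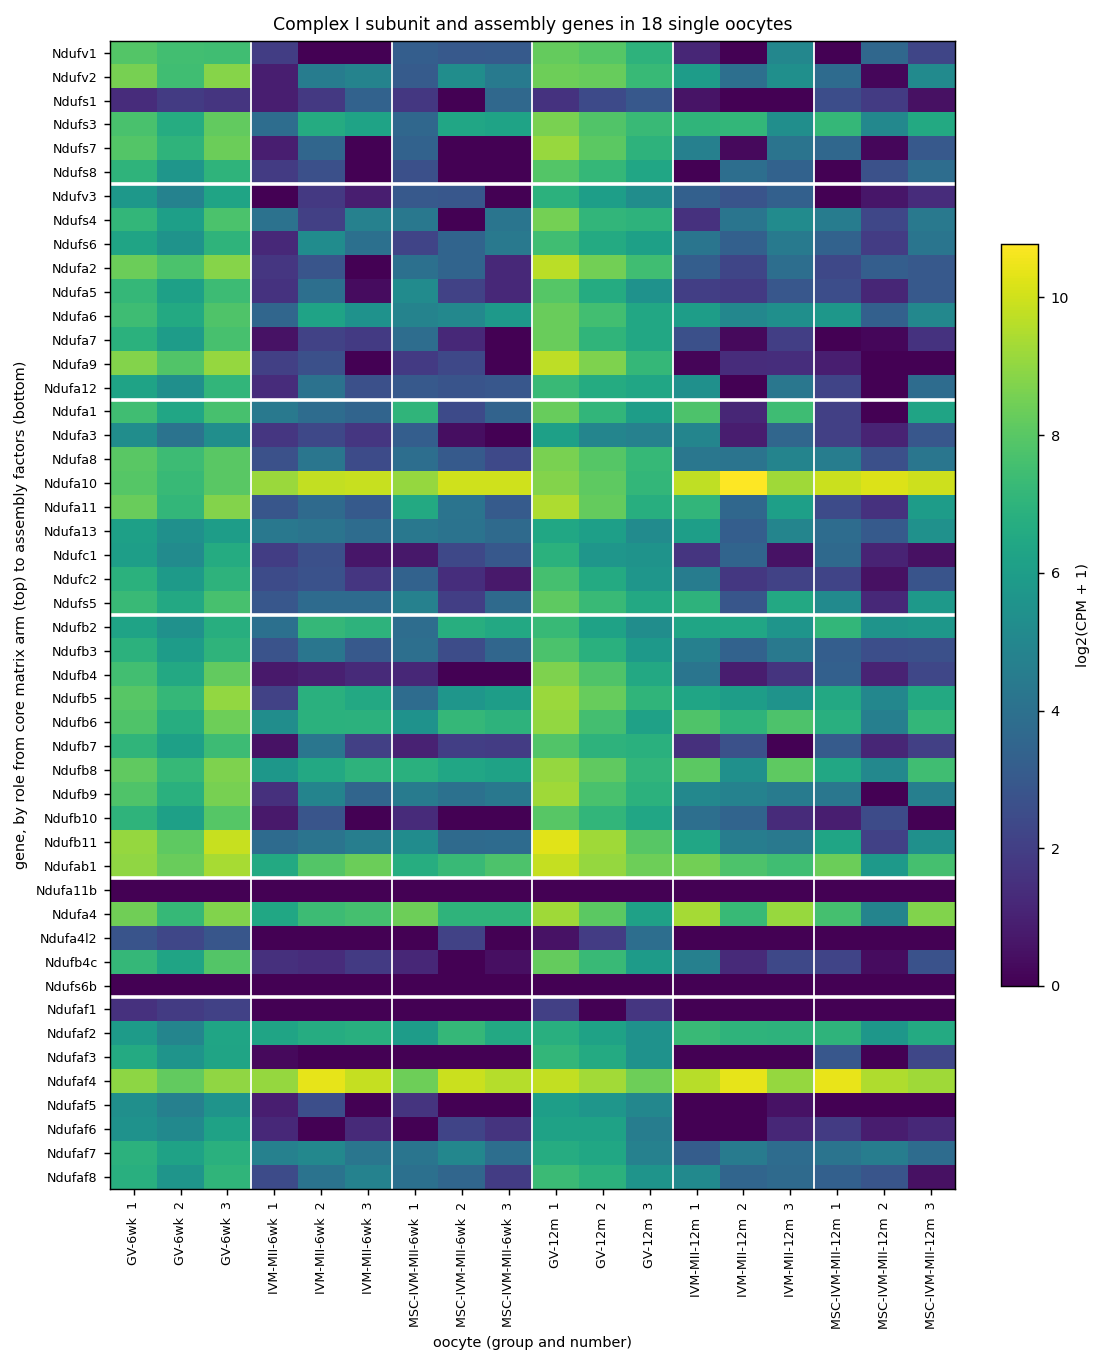
Level of each of 48 genes (rows, grouped by role and separated by white lines) in each of 18 oocytes (columns, in 6 groups of 3), as log2(CPM + 1) by colour. Most rows are bright in the 6 GV columns and dark in the 12 metaphase II columns, while Ndufa10 and Ndufaf4 are bright in the metaphase II columns too.

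Nearly every subunit transcript took a lower share of CPM in metaphase II than in GV oocytes. The median difference over the 41 subunit genes was -3.67 for IVM-MII against GV at 6wk and -2.90 at 12m. With MSC co-culture it was -3.63 at 6wk and -4.14 at 12m. Over all 12037 genes the medians in the same order were -0.51, -0.51, -0.29 and -0.60. The 2 comparisons of each age share their GV oocytes. The 8 Ndufaf genes had medians of -2.35, -2.31, -2.82 and -3.05 in the same order.

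Of all 49 members, 41 were lower in IVM-MII-6wk than in GV-6wk oocytes, where 39.2% of all genes were. At 12m 40 members were lower, against 38.8% of all genes. In co-cultured oocytes 41 members were lower at 6wk and 41 at 12m, against 35.2% and 41.6% of all genes. Members that were higher numbered 2, 1, 1 and 1 in these 4 comparisons, where 16.7%, 16.2%, 21.4% and 16.8% of all genes were. A set of 39 members was lower in all 4 comparisons, and Ndufa10 alone was higher in all 4. The share of all genes that were lower or higher in all 4 was not computed. Within each comparison, every metaphase II oocyte lay below every GV oocyte for 39, 33, 39 and 36 members, against 29.2%, 26%, 28.6% and 28.4% of all genes, and above for 2, 2, 1 and 1, against 9.57%, 11.3%, 14.3% and 11%. Over both ages and both cultures, for 28 members every one of the 12 metaphase II oocytes lay below every one of the 6 GV oocytes, a pattern shown by 13.4% of all genes. These were 24 genes with subunit symbols, the pseudogene Ndufb4c among them, and Ndufaf3, Ndufaf5, Ndufaf6 and Ndufaf8. The reverse pattern held for Ndufa10 and for 2.98% of all genes.

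**Figure D2:**
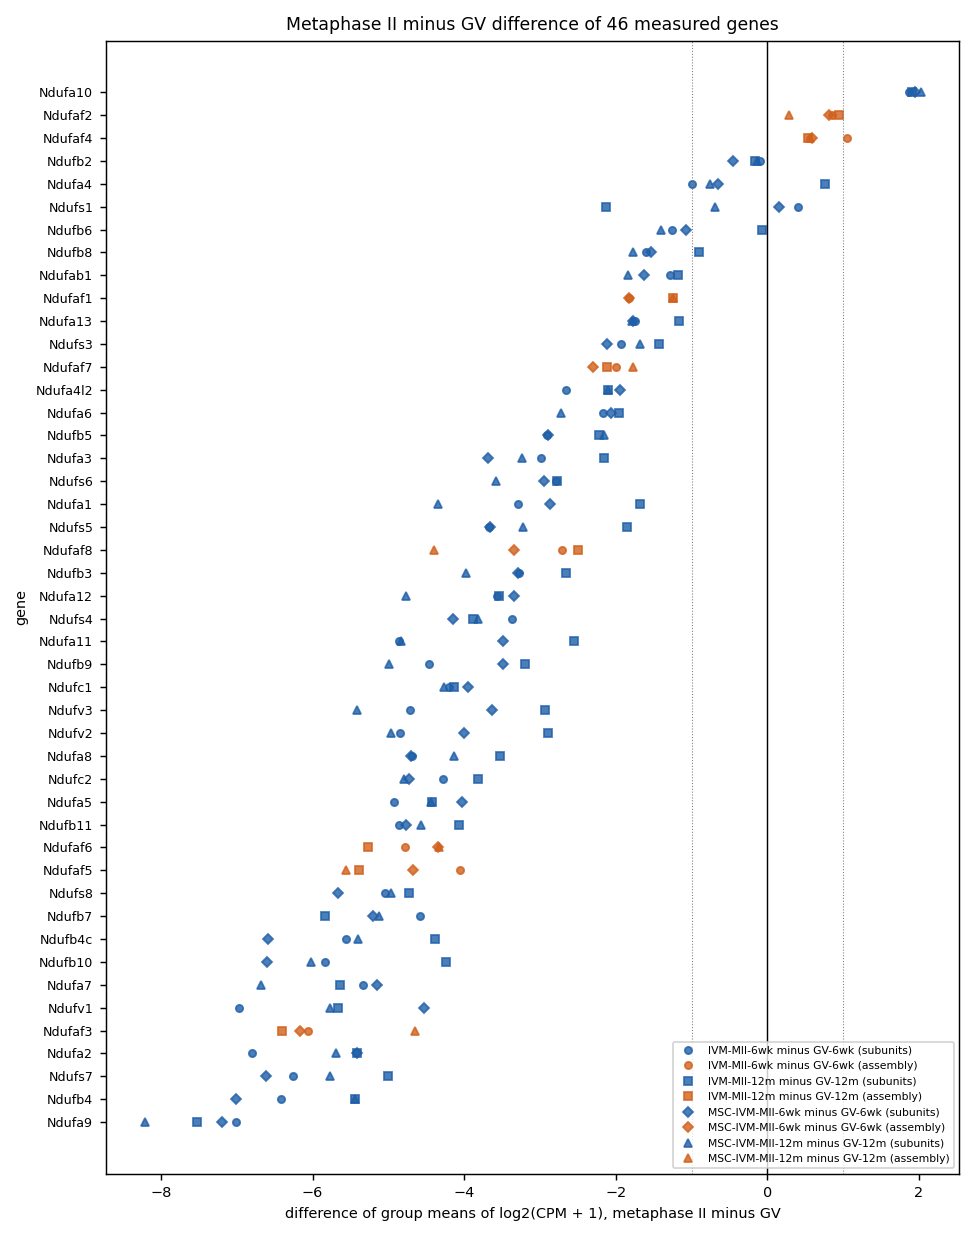
Difference of group means of log2(CPM + 1), metaphase II minus GV, for each of 46 genes that passed the filter (rows, in order of the mean of 4 differences), with 1 symbol for each of 4 comparisons. Subunits are blue, Ndufaf genes orange, and the dotted lines stand at -1 and 1. Ndufa10 is at the top near 2 and Ndufa9 at the bottom, between -8.22 and -7.01.

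The core of the matrix arm was low in metaphase II oocytes. Ndufv1, which binds NADH and the flavin, had 239, 181 and 178 CPM in GV-6wk oocytes and 298, 243 and 126 CPM in GV-12m oocytes. It had 2.92, 0 and 0 CPM in IVM-MII-6wk, 8.43, 7.01 and 7.25 CPM in MSC-IVM-MII-6wk, 1.21, 0 and 30.7 CPM in IVM-MII-12m and 0, 11.1 and 3.76 CPM in MSC-IVM-MII-12m. The groups did not overlap, and the mean was between 20.9 and 204 times lower than in the GV oocytes of the same age. Ndufs7, an iron-sulphur subunit beside the quinone site, ranged from 123 to 547 CPM with a median of 253 CPM in GV oocytes, and from 0 to 25.03 CPM with a median of 4.01 CPM in metaphase II oocytes. Ndufs8, another iron-sulphur subunit, ranged from 49.2 to 240.1 CPM in GV and from 0 to 13.8 CPM in metaphase II oocytes. Ndufv2, the partner of Ndufv1, ranged from 154 to 451 CPM and from 0.139 to 61.4 CPM. None of these 4 genes overlapped between the stages.

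Ndufs3, a core subunit with no cofactor of its own, was less low. It ranged from 101.4 to 387 CPM (median 218) in GV oocytes and from 10.96 to 142 CPM (median 78.6) in metaphase II oocytes, so the ranges overlapped. Its difference lay between -2.12 and -1.43. The 2 lowest metaphase II oocytes, IVM-MII-6wk oocyte 1 at 13.3 CPM and MSC-IVM-MII-6wk oocyte 1 at 10.96 CPM, both have titles that start with Y01. Ndufs1 had differences of 0.40 and 0.15 at 6wk (without and with MSC) and -2.13 and -0.69 at 12m, but all on levels of at most 11.4 CPM. Both 6wk values turned negative, to -0.27 and -0.77, without the third oocyte of the metaphase II group. Over the 7 core subunits the median difference was -5.0 and -4.54 at 6wk and -3.78 and -4.96 at 12m, without and with MSC.

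Among the accessory subunits of the matrix arm all 9 were lower in each of the 4 comparisons. Their median differences were -4.72 and -4.03 at 6wk and -3.89 and -4.77 at 12m. Ndufa9 (chr6:126821721-126849136, minus strand, GRCm38), a nucleotide-binding subunit near the junction of the arms, had the lowest difference of any member. GV-6wk oocytes had 436, 233 and 540 CPM and GV-12m oocytes 831, 413 and 143 CPM. IVM-MII-6wk oocytes had 3.15, 5.26 and 0 CPM, MSC-IVM-MII-6wk oocytes 2.53, 4.01 and 0 CPM, and IVM-MII-12m oocytes 0.121, 1.60 and 1.70 CPM. In MSC-IVM-MII-12m oocytes it had 0.891, 0 and 0 CPM, which rests on 2 counts in all (exact Poisson 95% interval 0.242 to 7.22, covering counting error only), against 7994 counts in GV-12m oocytes. The highest metaphase II value was 5.26 CPM and the lowest GV value 143 CPM. The fold decrease was 144 and 185 at 6wk and 406 in IVM-MII-12m oocytes.

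Ndufa2, with a thioredoxin-like fold, ranged from 177 to 821 CPM in GV oocytes and from 0 to 15.0 CPM in metaphase II oocytes. Ndufa7 ranged from 61.6 to 316 CPM and from 0 to 13.3 CPM. At the other end of this group stood Ndufa6, which ties an acyl carrier protein to the matrix arm, with differences between -2.73 and -1.96.

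In the distal membrane arm the accessory subunits spread more widely. All 11 were below 0 in each comparison, and 10, 8, 10 and 10 of them were lower by the 2-fold measure. Ndufb10 ranged from 68.6 to 250.3 CPM in GV and from 0 to 14.4 CPM in metaphase II oocytes. Ndufb4 (chr16:37647170-37654453, minus strand) ranged from 89.7 to 414 CPM in GV and from 0 to 17.3 CPM in metaphase II oocytes. Its processed copy Ndufb4c (chr15:73809507-73809896) matches it over its whole length, at 390 of 390 aligned bases. The principal Ndufb4 transcript has 971 bases, so reads within the shared stretch cannot be assigned to either gene, and reads outside it can. Summed over both, the level was 150.1 to 710.2 CPM in GV and 0 to 42.0 CPM in metaphase II oocytes.

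Ndufb2, by contrast, was nearly level between the stages, with 38.6 to 155 CPM (median 74.2) in GV and 13.5 to 145 CPM (median 80.6) in metaphase II oocytes. Its differences lay between -0.45 and -0.10 and changed sign in 2 of the 4 comparisons when deposited TPM were used (0.04 at 6wk and 0.31 in co-cultured oocytes at 12m). Ndufb6 had differences of -1.26 and -1.07 at 6wk and -0.07 and -1.40 at 12m. It shares 39.0% of its annotated exonic bases with Smim27 on the opposite strand, which had 98 counts over all oocytes. Ndufb8 had differences between -1.77 and -0.90, and Ndufab1 between -1.83 and -1.17. The level of Ndufab1 in metaphase II oocytes was still 54.6 to 360.3 CPM.

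Accessory subunits of the proximal membrane arm were low with 1 exception. Of the 9, 8 were lower in each comparison. Ndufa8, an intermembrane space subunit, ranged from -4.71 to -3.52 in its differences. The ninth was Ndufa10 (chr1:92439010-92473860, minus strand), a subunit with a nucleoside kinase fold on the matrix face of the membrane arm. It had 242, 153 and 261 CPM in GV-6wk oocytes and 444, 272 and 140 CPM in GV-12m oocytes. In 6wk metaphase II oocytes it had 564, 890 and 938 CPM without MSC and 534, 1037 and 1016 CPM with MSC. At 12m it had 848, 1760 and 602 CPM without MSC and 956, 1186 and 1004 CPM with MSC.

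Every metaphase II value of Ndufa10 was above every GV value. The mean was 3.65 and 3.95 times higher at 6wk and 3.75 and 3.68 times higher at 12m, without and with MSC. Under every alternative run its difference kept this sign, from 1.47 to 2.41 with 1 oocyte left out. On the TPM scale its median went from 203 in GV to 882 in metaphase II oocytes. This made it rank 31 among the 49 members in GV oocytes, and the highest of the 49 in metaphase II oocytes, above Ndufa4 (562 TPM) and Ndufab1 (496 TPM). As a share of all subunit CPM, Ndufa10 made up 2.52% to 3.69% in GV oocytes and 22.1% to 77.3% in metaphase II oocytes.

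**Figure D3:**
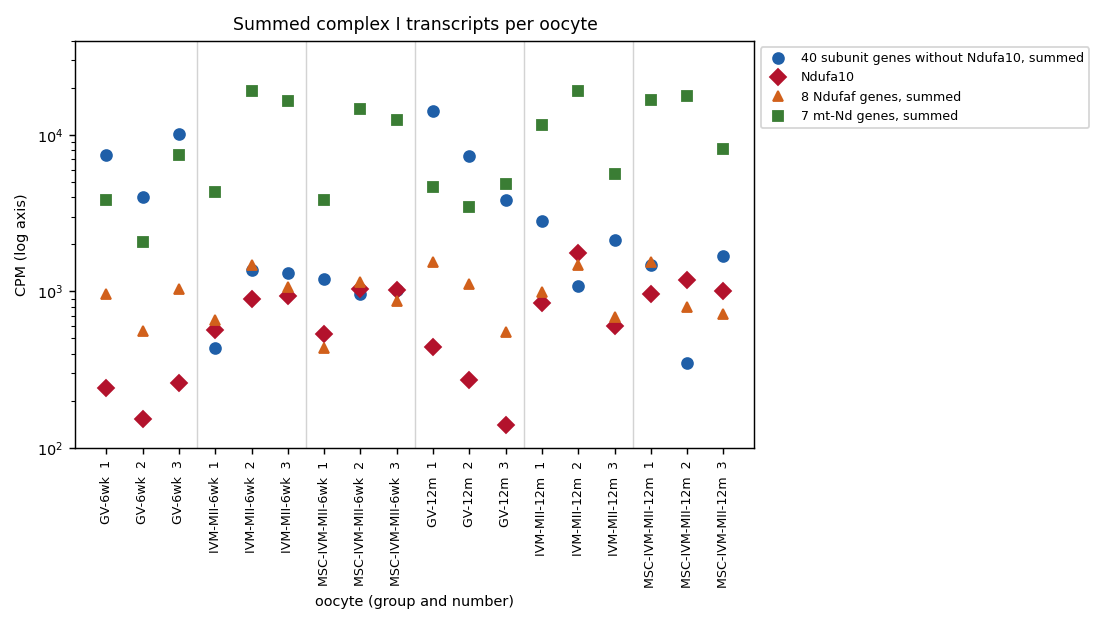
Summed CPM per oocyte on a log axis for the 40 subunit genes other than Ndufa10 (circles), Ndufa10 (diamonds), the 8 Ndufaf genes (triangles) and the 7 mitochondrially encoded subunits (squares). The 40 subunit genes sum to 3819 CPM or more in GV oocytes and to 2833 CPM or less in metaphase II oocytes, while the squares lie higher in most metaphase II oocytes.

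The assembly factors split into 2 sets. Ndufaf3 (chr9:108565537-108567434, minus strand), a matrix factor that partners Ndufaf4, had 95.7, 46.8 and 78.2 CPM in GV-6wk and 139, 95.3 and 43.8 CPM in GV-12m oocytes. Among the 12 metaphase II oocytes it was detected in 3, at 0.225 CPM (1 count) in IVM-MII-6wk oocyte 1 and at 6.68 and 3.95 CPM in MSC-IVM-MII-12m oocytes 1 and 3. With no count in either group, it was at least 174-fold lower in IVM-MII-12m and at least 82.7-fold lower in MSC-IVM-MII-6wk oocytes than in GV oocytes, against a floor of 3 counts per library. Ndufaf5, which hydroxylates Ndufs7, ranged from 24.98 to 65.8 CPM in GV and from 0 to 4.95 CPM in metaphase II oocytes. Ndufaf6, an early factor of the quinone module, ranged from 23.0 to 73.5 CPM and from 0 to 3.67 CPM. Ndufaf8, the partner of Ndufaf5, ranged from 46.5 to 162 CPM and from 0.395 to 33.7 CPM. All 4 were separated between the stages.

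Ndufaf7, a mitochondrial methyltransferase, overlapped between the stages, with 26.0 to 119.9 CPM in GV and 8.10 to 32.2 CPM in metaphase II oocytes. Its differences lay between -2.31 and -1.78. Ndufaf1 had no count in any of the 12 metaphase II oocytes. At its GV levels this allows no more than a statement that it was at least 2.28-fold to 3.35-fold lower, by comparison.

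Ndufaf4 and Ndufaf2 were not lower. Ndufaf4 (chr4:24898083-24905001, plus strand) had 494, 294 and 501.3 CPM in GV-6wk and 880, 619 and 337 CPM in GV-12m oocytes. It had 545, 1317 and 911 CPM in IVM-MII-6wk, 341, 955 and 759 CPM in MSC-IVM-MII-6wk, 785, 1318 and 536 CPM in IVM-MII-12m and 1376, 718 and 605 CPM in MSC-IVM-MII-12m oocytes. Its partner Ndufaf3 was thus near 0 in oocytes where Ndufaf4 was among the most abundant members. The ranges of Ndufaf4 overlapped between the stages, and its differences were 1.05 and 0.59 at 6wk and 0.53 and 0.57 at 12m, without and with MSC.

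Ndufaf2 (chr13:108002715-108158623, minus strand), a paralogue of Ndufa12 found on late intermediates, ranged from 29.3 to 109.5 CPM (median 65.9) in GV and from 52.0 to 157 CPM (median 106) in metaphase II oocytes. Its differences were 0.85 and 0.81 at 6wk and 0.95 and 0.28 at 12m, and the last became -0.06 without GV-12m oocyte 3. It shares 65.6% of its annotated exonic bases with B230220B15Rik on the opposite strand, which is not among the 47069 genes counted. The strand setting of the counting is not given in the sources used here, so reads of such pairs cannot be told apart.

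**Figure D4:**
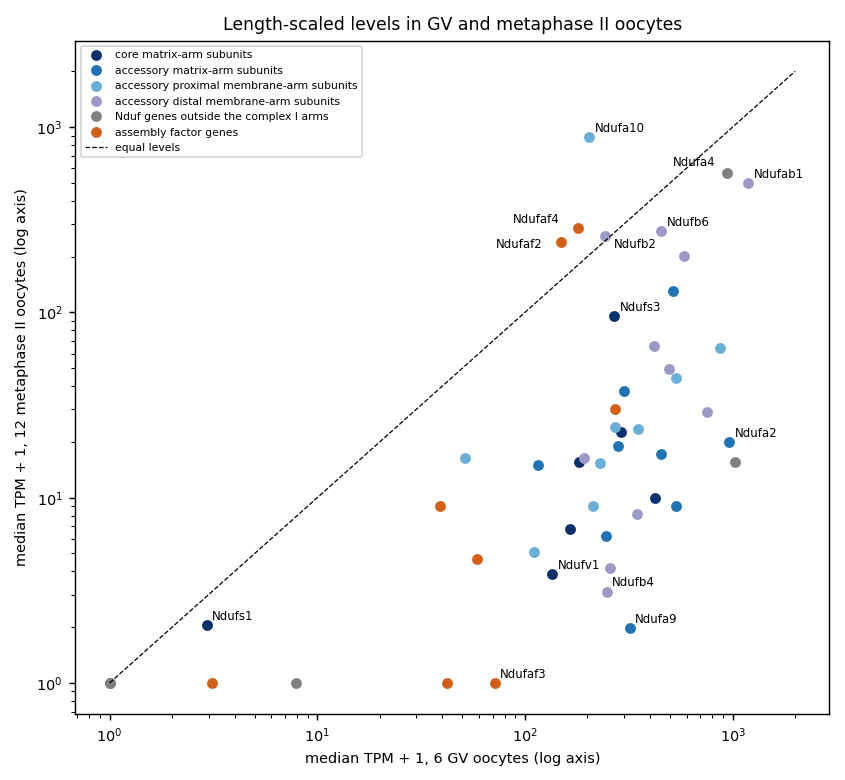
Median TPM + 1 in the 12 metaphase II oocytes against that in the 6 GV oocytes, both on log axes, with 1 point per gene coloured by role and a dashed line at equal levels. Ndufa10, Ndufaf4, Ndufaf2 and Ndufb2 lie above the line, and Ndufa9 and Ndufaf3 far below it.

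Ndufa4 has an Nduf symbol but is now placed in cytochrome c oxidase. It varied more between metaphase II oocytes than between stages, with 70.4 to 606 CPM in GV and 27.7 to 638 CPM in metaphase II oocytes. Its differences were -0.99 and -0.66 at 6wk and 0.75 and -0.76 at 12m. The positive value became -0.08 without GV-12m oocyte 3, and the last became 0.34 without MSC-IVM-MII-12m oocyte 2. Its paralogue Ndufa4l2, known as a gene induced by hypoxia, had 0.444 to 13.8 CPM in GV oocytes and was detected in 1 of 12 metaphase II oocytes, at 3.34 CPM.

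The 7 subunits encoded in mitochondrial DNA, which form the core of the membrane arm, went the other way from the nuclear subunits. Their median differences were 1.79 and 1.51 at 6wk and 1.38 and 1.62 at 12m, without and with MSC. In IVM-MII-6wk, MSC-IVM-MII-6wk, IVM-MII-12m and MSC-IVM-MII-12m oocytes 7, 6, 6 and 7 of the 7 were higher. Of all genes 16.7%, 21.4%, 16.2% and 16.8% were higher in the same order. Every metaphase II oocyte lay above every GV oocyte for 2, 1, 5 and 6 of the 7. Of all genes 9.57%, 14.3%, 11.3% and 11% did so. Their sum was 2056 to 7425 CPM in GV and 3848 to 19137 CPM in metaphase II oocytes, so the ranges overlapped. The lowest sums among metaphase II oocytes, 4288 and 3848 CPM, were again those of the Y01 titles. The share of all 37 mitochondrially encoded genes moved with this, from 0.917% to 3.70% of CPM in GV and from 3.03% to 14.9% in metaphase II oocytes, and its part in the result was not tested.

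Of 11 assembly factors without an Nduf symbol that were found in the tables, 10, 7, 8 and 8 were lower in IVM-MII-6wk, IVM-MII-12m, MSC-IVM-MII-6wk and MSC-IVM-MII-12m oocytes, against 39.2%, 38.8%, 35.2% and 41.6% of all genes. Their medians were -2.09, -1.89, -1.63 and -1.49. No test compared them with the Ndufaf genes, of which 6 of 8 were lower in each comparison. Ecsit and Tmem126b, the partners of Ndufaf1, had differences between -4.95 and -2.72 and between -4.83 and -3.78. Aifm1, a flavoprotein that also takes part in protein import, lay between -0.79 and 0.05.

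Metaphase II oocytes differed among themselves. Ndufa1, a small membrane-arm subunit encoded on the X chromosome, had 214 and 172 CPM in IVM-MII-12m oocytes 1 and 3, 133 CPM in MSC-IVM-MII-6wk oocyte 1 and 77.1 CPM in MSC-IVM-MII-12m oocyte 3. In the other 8 metaphase II oocytes it had at most 19.6 CPM. Ndufa11, a membrane-arm subunit known for its place in supercomplexes, was at or above 50 CPM in the same 4 oocytes, at 137, 66.5, 93.2 and 60.9 CPM in that order. It had at most 16.7 CPM in the other 8. IVM-MII-12m oocyte 1, the metaphase II library with the most counts (8948887), held the highest metaphase II value for 21 members. The share of all genes that were highest in it was not computed. The number of subunit genes with at least 10 CPM ran from 10 in MSC-IVM-MII-12m oocyte 2 to 26 in IVM-MII-12m oocytes 1 and 3.

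Between the ages, none of the 49 members was lower or higher by the log2(CPM + 1) measure in GV oocytes, where 4.29% of all genes were lower and 9.35% higher at 12m. As a ratio of mean CPM the weakly expressed Ndufs1 was 2.05 times higher at 12m, with means of 2.13 CPM at 6wk and 4.37 CPM at 12m. The median difference was 0.13 over the subunits, 0.18 over the Ndufaf genes and 0.12 over all genes. Subunit CPM summed to 7632, 4136 and 10394 in GV-6wk and to 14649, 7636 and 3959 in GV-12m oocytes, so the spread within each age exceeded the difference between ages. No member was separated between the ages, against 3.56% of all genes lower and 3.63% higher in every 12m oocyte. The subunit median became 0.61 without GV-12m oocyte 3, the oocyte with the highest sum of cumulus and granulosa markers.

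Among oocytes matured without MSC, 17 of the 49 members were higher at 12m, against 18% of all genes. Only Ndufs1 was lower (-1.84, on 45 counts summed over IVM-MII-6wk and 4 over IVM-MII-12m oocytes), against 9.07% of all genes. The subunit median was 0.80, against -0.09 over the Ndufaf genes and 0.16 over all genes. All 17 bear subunit symbols, and the highest differences were those of Ndufa11 (2.37), Ndufv3 (2.25) and Ndufs5 (1.97). Ndufa11 had 6.30, 12.4 and 7.41 CPM at 6wk and 137, 11.2 and 66.5 CPM at 12m, so the groups overlapped. Ndufv3 had at most 8.95 CPM in any metaphase II oocyte. Ndufb6 had 38.5, 116 and 121 CPM at 6wk and 224, 126 and 218 CPM at 12m. It was the 1 gene among the 17 with at least 20 CPM whose oocytes did not overlap between ages. Its difference was 1.16. Across all members 3 were higher in every 12m oocyte, against 6.24% of all genes, and 1 was lower, against 2.37%. The subunit median was 0.46 without IVM-MII-6wk oocyte 1, whose title starts with Y01, and lay between 0.40 and 1.24 with any 1 oocyte left out. Total counts ran from 3080516 to 4271400 in IVM-MII-6wk and from 4583562 to 8948887 in IVM-MII-12m oocytes. Depth thus differed with age here, and its part was not tested.

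Among co-cultured oocytes 6 members were higher at 12m, against 7.73% of all genes, and 8 lower, against 15.2%. None was separated between ages, against 4.86% of all genes lower and 2.93% higher in every 12m oocyte. The median differences were -0.03 over the subunits and -0.06 over the Ndufaf genes, with -0.12 over all genes.

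Co-culture with MSC was compared with maturation alone at each age. At 6wk 4 members were higher with MSC, against 16.2% of all genes, and 1 was lower, against 5.22%. The subunit median was 0.00 and that of the Ndufaf genes -0.20, with 0.20 over all genes. Ndufv1 had the highest difference, 2.44, from 2.92, 0 and 0 CPM to 8.43, 7.01 and 7.25 CPM, both far below its GV level. Across all members 1 was lower and 1 higher in every co-cultured oocyte, against 1.5% and 3.86% of all genes. The subunit median was -0.49 without the oocytes of title Y01.

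At 12m 15 members were lower with MSC, against 15.2% of all genes, and 2 were higher, against 10.3%. The subunit median was -0.66, and that of the Ndufaf genes 0.02, with -0.10 over all genes. Of the 41 subunit genes 31 were below 0 and 7 above, and of all 12037 genes 6596 were below and 5098 above. Ndufa1 (-2.66), Ndufv3 (-2.48), Ndufa11 (-2.28) and Ndufv2 (-2.06) had the lowest differences, that of Ndufv3 on levels of at most 8.95 CPM. Ndufa1 had 214, 1.2 and 172 CPM without and 3.12, 0 and 77.1 CPM with MSC, so the groups overlapped. Across all members 3 were lower in every co-cultured oocyte, against 3.99% of all genes, and none was higher, against 2.64%. Leaving out 1 oocyte at a time moved the subunit median between -0.99 and -0.19.

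**Figure D5:**
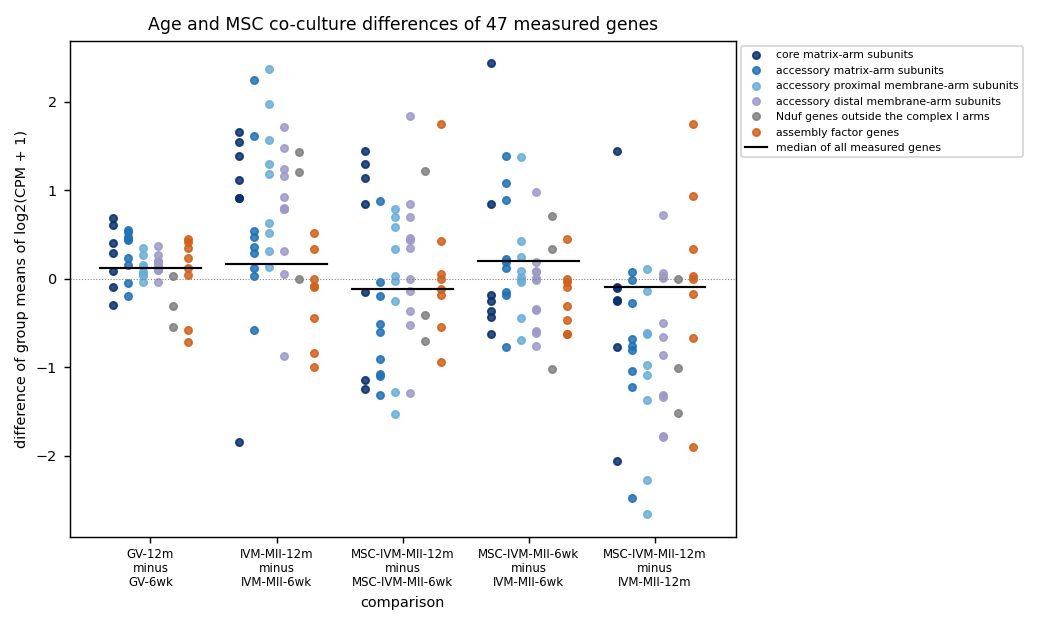
Difference of group means of log2(CPM + 1) for the 47 genes that passed the filter in the 3 age comparisons and the 2 co-culture comparisons, with 1 point per gene coloured by role. Black lines mark the median of all 12037 genes. Points lie within 0.72 of 0 for age in GV oocytes and spread from -2.66 to 2.44 among metaphase II oocytes.

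The members are short transcripts. Their principal coding transcripts had a median length of 977 bases and a median 3′ UTR of 168.5 bases, against 2865.5 and 931 bases over the coding genes measured. Across the 46 coding members the mean maturation difference had a Pearson r of 0.39 and a Spearman rho of 0.12 with transcript length, and of 0.40 and 0.31 with 3′ UTR length. With the GV level in TPM the values were -0.01 and -0.08. These describe genes, which share libraries and are not independent.

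In maturing oocytes the protein CPEB binds U-rich cytoplasmic polyadenylation elements near the end of maternal mRNAs and governs their poly(A) tails together with the polyadenylation hexamer. The last 150 bases of each principal transcript were searched on the sense strand for TTTTAT or TTTTAAT, which can share bases with a hexamer. Of the 46 coding members 6 held 1, or 13.0%, against 24.6% of the 10818 coding genes measured. These were Ndufa2, Ndufab1, Ndufc2, Ndufs4, Ndufaf3 and Ndufaf6. None of the 3 genes with positive differences in every comparison did. Where the 3′ UTR is shorter than 150 bases, down to 40 bases in Ndufa11, the search ran into coding sequence. The median 3′ UTR was 168.5 bases in members and 931 bases over the coding genes measured. The percentages thus come from unlike stretches, and they were not matched for 3′ UTR length. The median of the mean maturation difference was -4.55 with and -3.27 without the element among members, and 0.10 with and -0.64 without it among all coding genes measured. The hexamer AATAAA or ATTAAA stood in the last 40 bases of 34 members, 73.9%, against 76.3%. The annotated ends may not be the ones used in oocytes. They are shown first, with the hexamer in capitals, for the 3 genes with positive differences in every comparison. Of these only Ndufa10 was higher by the 2-fold measure in every comparison. Windows around the element, in capitals, follow for 3 genes that were lower in every comparison.
Ndufa10 end: taATTAAAacttaatgaaatttagcactca
Ndufaf2 end: tgttttaacaAATAAAaggttaaaagtcga
Ndufaf4 end: tcagtccccAATAAActgcactgcaatcct
Ndufaf3 element: ttcccaaacTTTTATtgaaaaatt
Ndufs4 element: atggagatcTTTTATtcttaggaa
Ndufab1 element: tttcagactTTTTATtaacaataa
The element lies 21 bases from the end in Ndufaf3, 58 in Ndufs4 and 52 in Ndufab1. A match is a run of letters and no sign that the element is used.

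Members lie on 17 chromosomes, and 2 are on the X chromosome (Ndufa1 and Ndufb11). Ndufs8 and Ndufv1 are 94609 bases apart on chromosome 19. Promoter windows from 250 bases before to 50 bases after the start, from RefSeq (GRCm38.p6), were found for 40 of the 49 members. The comparison set was all 27025 genes with such a window, measured in these oocytes or not. Shares over the measured genes alone were not computed. On either strand the motif of the respiratory gene activator NRF1 (GCGC, any base, then TGCGC) was in 9 of 40 (22.5%) against 5.19%. The motif of YY1, AAGATGGC, was in 8 (20%) against 3.19%. The ETS motif CCGGAAGT was in 1 (2.5%) against 4.31%, TATAAA in 4 (10%) against 15.7% and CCAAT in 14 (35.0%) against 41.1%. Windows around the match, in capitals, are shown for genes at both ends of the maturation differences and for Ndufs6, which has both motifs.
Ndufaf4 NRF1 chr4:24897961-24897988 plus strand: cagatgtctGCGCATGCGCctgtgcgga
Ndufb4 NRF1 chr16:37654372-37654399 minus strand: ctcatatccGCGCAGGCGCagatgtgcg
Ndufs6 NRF1 chr13:73328480-73328507 minus strand: gactgctgtGCGCCTGCGCcggcacttg
Ndufs6 YY1 chr13:73328433-73328458 minus strand: gtcaccggcAAGATGGCggcggtgct
Ndufa9 YY1 chr6:126849099-126849124 minus strand: ttgtgggagAAGATGGCggccgccgt
Ndufs7 YY1 chr10:80249464-80249489 plus strand: gccgaggccAAGATGGCggcgctggc
All 8 YY1 matches begin between 11 and 39 bases after the start, and the motif contains the letters of a start codon. The median of the mean maturation difference was -3.93 with and -3.30 without NRF1 letters, and -3.52 with and -3.55 without YY1 letters. Neither Ndufa10 nor Ndufaf2 held either motif in its window.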

How the data were processed

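The authors deposited expected counts, TPM and FPKM for each oocyte, per the file headers. TopHat2 2.1.1, Cufflinks, Trim Galore 0.4.5 and FastQC 0.11.8 are named, with the build mm10 (GRCm38.p5), per the submitters' processing notes. What computed the expected counts, and on which annotation, is not given in the sources used here. The deposited expected counts divide reads between similar genes, and they were rounded to whole numbers. TPM, as deposited by the authors, served for levels between genes and as an alternative, and FPKM was not used.

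Symbols and gene models came from GENCODE M21. TMM factors came from edgeR 4.0.16 under R 4.3.3, and its filterByExpr by group set the 12037 genes measured. Totals of 1914072 to 9193559 counts limit the precision of low values, and without molecular identifiers a read is not a molecule. The 9 comparisons use log2(CPM + 1). Medians over members include the 2 genes with no count. The calculation was tested on simulated data. Alternatives were DESeq2 1.42.0 size factors, total counts, deposited TPM, no filter, another pseudocount, ratios of means, title prefixes and each oocyte left out. Other steps used Python 3.11.15, pandas 2.3.3, NumPy 2.4.6, SciPy 1.17.1 and, for figures, Matplotlib 3.10.9.

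Named genes were the 7 core matrix-arm subunits, the 8 Ndufaf genes, Ndufa4 and Ndufa4l2, the 5 other subunits with the lowest and the 5 with the highest mean of the 4 maturation differences, and, for age and co-culture, up to 5 members each way past 2-fold with at least 20 CPM and no overlap. Other genes were named after their values were seen. The values of 1 member are not reported here. The members and lists were chosen with earlier results of these data known.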

Additional observations from a re-analysis of the deposited data

How the results depend on the processing

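Under every alternative run the 18 medians moved by less than the spread between oocytes. The 4 counts of lower members moved by less than 1.5 times. For the medians with 1 oocyte of 3 left out, this outcome was largely fixed in advance. Such a loss can hardly shift a group past that spread, so the ranges are given. With 1 oocyte left out the subunit medians against GV ran from -4.25 to -3.42 (IVM-MII-6wk), -3.25 to -2.32 (IVM-MII-12m), -4.14 to -3.28 (MSC-IVM-MII-6wk) and -4.49 to -3.50 (MSC-IVM-MII-12m), those of the Ndufaf genes from -2.68 to -2.04, -2.87 to -1.94, -3.15 to -2.39 and -3.62 to -2.56, and the counts from 39 to 42, 37 to 41, 40 to 42 and 40 to 43 of 49. Within title prefixes the subunit medians were -4.11, -2.62, -3.53 and -3.50. For age in GV oocytes the subunit median ran from -0.25 to 0.61, so its sign rests on single oocytes, as it did for age with MSC (-0.21 to 0.40) and for co-culture at 6wk (-0.30 to 0.39). Without GV-12m oocyte 3 and both metaphase II oocytes of title Y01, an alternative chosen after seeing the data, the subunit medians against GV were -3.56, -3.25, -4.14 and -4.49. Scaling moved the median of all genes by over 0.1, from -0.51 to -0.29 with TPM in IVM-MII-6wk and from -0.51 to -0.68 with DESeq2 size factors in IVM-MII-12m oocytes. Of 520 values of single named genes, 503 kept their sign and 4 moved by more than the oocyte spread, all 4 with TPM. Among the 520 are the lowest and highest values with 1 oocyte left out. With 3 oocytes per group those cannot move a single gene past that spread, so only their signs carry information. Oocytes were not paired one to one, since the labels give no oocyte number shared between groups, and the title prefixes were the only block used.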

Other observations

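Nuclear genes of the other respiratory complexes were measured beside the complex I subunits. Of 49 genes of complexes II to V, 38, 32, 37 and 36 were lower by 2-fold in IVM-MII-6wk, IVM-MII-12m, MSC-IVM-MII-6wk and MSC-IVM-MII-12m than in GV oocytes, with medians of -2.77, -2.44, -2.72 and -3.26. The medians of the complex I subunits, in the same order, were -3.67, -2.90, -3.63 and -4.14. Of 78 mitochondrial ribosomal protein genes, which serve the translation of the mitochondrially encoded subunits, 61, 64, 61 and 62 were lower, with medians of -2.53, -2.60, -2.61 and -2.93. The percentages of all genes were 39.2%, 38.8%, 35.2% and 41.6%. No test of a difference between these lists was made.

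Between ages in oocytes matured without MSC, 19 of the 49 genes of complexes II to V were higher by 2-fold at 12m and 2 lower, with a median of 0.45. Among the 78 mitochondrial ribosomal protein genes 7 were higher and 13 lower, with a median of -0.02. The complex I subunits had a median of 0.80 in the same comparison, where 18% of all genes were higher and 9.07% lower.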
